A study of Mus musculus with 20 samples.

Results

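Bone marrow of mice given the drug without the mutation was compared with bone marrow of mice with the mutation and no drug. These groups also differed in sex-linked transcripts, so that mutation alone means only the absence of the drug. The drug alone group was 5 mice that expressed U2AF1(WT) and received sudemycin D6 (mice 6, 8, 9, 10 and 12), and the mutation alone group was 5 mice that expressed U2AF1(S34F) and received vehicle (mice 1, 3, 5, 7 and 11). They were chosen by genotype and treatment alone, and are 10 of 20 mice in 4 groups. The 5 vehicle-treated U2AF1(WT) mice (mice 1 to 5) served as controls for both arms. Of 37620 genes with read counts 34551 were autosomal, and 14216 of these were tested. Differences are given throughout as drug alone minus mutation alone, so that a positive value is a higher level with the drug. Values after ± are the SD of 5 mice for levels and for Ψ, and the SE for log2 fold changes. Mouse numbers name mice within a group, and equal numbers in different groups are different mice.

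All recipients carried transplanted donor marrow with a doxycycline-inducible human U2AF1 transgene and its rtTA activator, and all ate doxycycline chow at 625 ppm for 7 days, so the control marrow was also transgenic and induced. Donor marrow was pooled from several mice of a genotype, and engraftment lasted more than 6 weeks. Sudemycin D6 or the cyclodextrin vehicle was infused intravenously over the last 5 of the 7 days. Because the RNA came from whole marrow, cells of the recipient, such as stroma, can contribute to it. The drug alone and control mice had high *Xist* counts (39145 to 74841 and 54753 to 78640) and the mutation alone mice did not (2 to 6), and reads on Y-linked genes appeared in the mutation alone mice (10270 to 15034) and not in the drug alone mice (0). The mutation and sex can therefore not be told apart, and only autosomes were counted. Gene counts summed to between 45019332 and 51335297 per drug alone mouse and between 49926328 and 62138138 per mutation alone mouse. The mutant allele itself cannot be seen in counts per gene.

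U2AF1 and SF3B1 act at the same step of splicing. U2AF1 contacts the AG at the end of the intron, next to its partner U2AF2 on the pyrimidine tract, and SF3B1, a subunit of the U2 snRNP, holds the branch point a short way upstream. The S34F change lies in a zinc finger of U2AF1 and is recurrent in myelodysplastic syndromes, where it is known to alter use of 3′ splice sites by the base just before the AG. Sudemycins bind SF3B1 and weaken branch point recognition. The comparison therefore sets disturbance of the branch point against disturbance of the AG, in marrow that also differs in sex-linked transcripts.

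The 3′ splice sites of the exons with the largest |ΔΨ| in each direction are shown first, because the base at -3 is described over all called exons further on. They are the 8 largest in each direction among called exons with an average of 50 reads per mouse or more and no overlap between the arms, 1 per gene, and are listed by size. Each line has the last 20 bases of the intron and the first 3 of the exon, 5′ to 3′ on the strand of the gene in mm9 (NCBI build 37), and the capitals mark intron positions -3 to -1. The following 8 exons were included more with the drug alone.
Apol11b: attatttttctgataaaTAGtgg
Pstk: tttgttgttgtgttttgTAGcca
Naip2: ctccattctatcccctaCAGatg
Aim2: cctttatgtatattgttTAGgaa
Nf1: tgctcatctctgttctgTAGgca
Meaf6: gtttatctgtttaattgTAGgta
Hp1bp3: acgtctttcctgtgctcTAGgtt
Alpk1: attctccccttgtgtttTAGgca

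The next exons were included more with the mutation alone, and are the comparison for the base that opens the capitals. The smallest of these 8, in 4933408B17Rik, is named only.
1110005A03Rik: aatccctcctttaatccCAGcat
Tpd52: cttcctctggcttcttaCAGatt
Pecam1: gtgccgtctttgttttgCAGatc
Zdhhc3: aattatattcttctcttCAGctc
Hsf2: tttttgtttggtcttttCAGctt
Pbrm1: gccttgttcttctctttCAGttc
Trim30b: ctcttttcttacccatgAAGaac

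In the first set 7 of 8 exons have T at position -3 and *Naip2* has C. In the second set *Trim30b* has A and the others shown have C. The rule that chose these exons did not use their sequence.

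Cassette exon inclusion differed widely between drug and mutation. Ψ, the percent of transcripts that include an exon, was calculated from junction reads. Of 24725 autosomal cassette exon events tested, 1648 (6.67%) in 1168 genes passed FDR<10% with |ΔΨ|>1% in the edgeR test, where the variation between mice was left to the quasi-likelihood term. That setting of the test was chosen in an earlier analysis of these data after calls were seen. Inclusion was higher with the drug in 745 events (3.01%) and with the mutation in 903 (3.65%). The median |ΔΨ| of called events was 7.54 percentage points, and 629 passed 10 points. Values of the 5 drug alone mice and the 5 mutation alone mice did not overlap in 1109 of all tested events (4.49%) and in 754 of the called ones. The count depends on the test: limma on Ψ called 242 events, 59.1% of them included more with the drug, and edgeR with an estimated dispersion called 0, with a smallest FDR of 0.146, although 2608 events had an unadjusted p under 0.05. Against the control mice that they share, 383 events (1.55%) were called for the drug alone and 1044 (4.19%) for the mutation alone. The former count was 246 without drug alone mouse 12 and 250 without control mouse 3, and the latter 657 without mutation alone mouse 11.

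The largest gain of inclusion with the drug was in *Apol11b*, an apolipoprotein L gene (exon at chr15:77468365-77468488, 124 bases, coding). Its Ψ was 69.2, 67.2, 66.7, 89.6 and 73.3% in drug alone mice 6, 8, 9, 10 and 12, and 17.3, 12.7, 9.302, 15.8 and 9.09% in mutation alone mice 1, 3, 5, 7 and 11. The control mice 1 to 5 had 44.6, 30.7, 55.2, 43.5 and 55.6%. Every drug alone mouse was above every control mouse and every mutation alone mouse was below them, so the arms lay on opposite sides of the control. ΔΨ between the arms was 60.4 points (FDR 5.13e-15 by edgeR, 0.00143 by limma).

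*Nf1*, which encodes the Ras GTPase-activating protein neurofibromin, had a similar order (exon at chr11:79276735-79276797, 63 bases, coding). Inclusion was 56.1, 52, 69.2, 62.1 and 61.4% with the drug alone and 27.1, 28.6, 15.1, 41.2 and 25.5% with the mutation alone. Controls lay between at 43.7 ± 10.3% (SD, n = 5), although they overlapped both arms, and neither arm was called against them (FDR 0.419 and 0.132). The difference between the arms was 32.7 points (FDR 0.000193, limma 0.0401).

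*Alpk1*, the kinase that senses bacterial ADP-heptose, and *Aim2*, the cytosolic DNA sensor of the inflammasome, included their exons at 88.8% or more in every drug alone mouse. For *Alpk1* (chr3:127388156-127388232, 77 bases, coding) Ψ was 95.6, 100, 100, 97.7 and 97.01% with the drug and 70.8, 67.7, 72.2, 56.1 and 75% with the mutation. Its control mean was 95.7 ± 4.74%, and ΔΨ was 29.7 points (FDR 1.50e-06, limma 0.0291). The drug alone mice thus lay within the control range and the mutation alone mice below it. The *Aim2* exon (chr1:175384355-175384444, 90 bases, outside the coding sequence) had Ψ of 100, 100, 88.8, 90.7 and 99.1% with the drug and 67.4, 58.1, 71.7, 70.4 and 42.6% with the mutation. Its controls were at 84.2 ± 6.71%, and ΔΨ was 33.7 points (FDR 1.06e-09, limma 0.0587).

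*Pstk*, a kinase of selenocysteine synthesis, *Meaf6*, a subunit of histone acetyltransferase complexes, and *Hp1bp3*, a chromatin protein, were the other members with T at -3. The *Pstk* exon (chr7:138517050-138517344, 295 bases) had Ψ of 47.1, 90.9, 100, 78.8 and 97.3% with the drug and 26.8, 33.3, 25.9, 21.2 and 23.1% with the mutation (ΔΨ 56.8 points, FDR 0.000133, limma 0.0486) on 20 to 89 reads per mouse. *Meaf6* (chr4:124784896-124784953) ranged from 37.8 to 63.6% with the drug and from 13.4 to 32.7% with the mutation (ΔΨ 31.5 points, FDR 1.52e-06, limma 0.0600). In *Hp1bp3* (chr4:137777441-137777633) the ranges were 53.1 to 92.2% and 32.9 to 39.8% (ΔΨ 29.8 points, FDR 4.91e-06), and limma did not call it (FDR 0.111). None of these ranges overlapped between the arms.

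*Naip2*, a sensor of bacterial secretion systems, was the exception among the 8 exons in this direction, with C at -3. Its Ψ was 89.9, 99.6, 100, 98.1 and 100% with the drug and 74.1, 13.6, 10.5, 82.1 and 24.1% with the mutation (exon at chr13:100930076-100932319, ΔΨ 56.6 points, FDR 1.51e-10). Mutation alone mice 3, 5 and 11 lay far below mice 1 and 7, and limma gave FDR 0.134. The Naip genes are near-identical neighbours, so reads of this event may be split among copies.

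**Figure D1:**
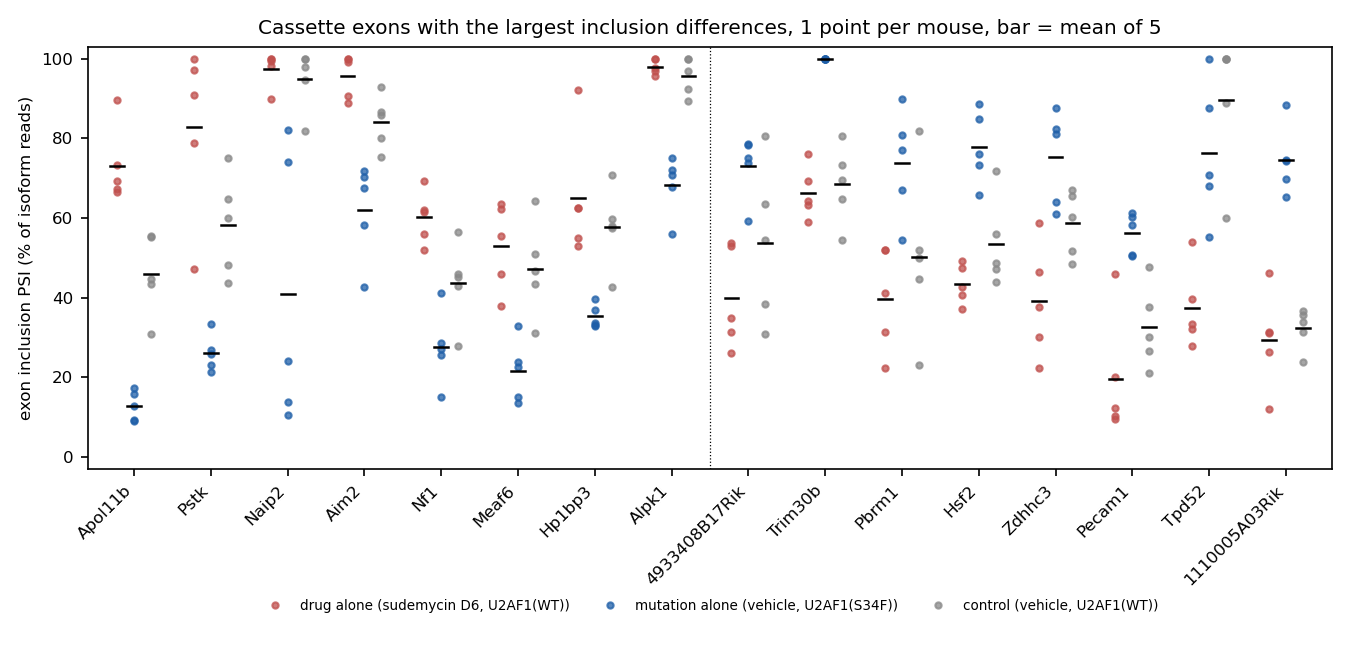
Inclusion (Ψ, %) of the exons with the largest differences, 1 point per mouse, for drug alone, mutation alone and control mice (5 each), with bars at the group means. The exons in the drug direction have all drug alone points above all mutation alone points, and the reverse holds for the others; *Apol11b* means were 73.2 ± 9.52% and 12.8 ± 3.71%.

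In the other direction the largest difference was in 1110005A03Rik (exon at chr11:116707133-116707259, 127 bases, outside the coding sequence). Ψ was 31.2, 31.5, 26.2, 46.1 and 11.96% with the drug alone, 74.6, 65.3, 69.9, 88.3 and 74.4% with the mutation alone and 36.6, 23.9, 33.96, 35.6 and 31.5% in controls. The drug alone mice were spread around the control mean, and all mutation alone mice lay above both groups. ΔΨ was -45.1 points (FDR 4.23e-08, limma 0.0344), and against control only the mutation arm was called (FDR 3.18e-06, with 0.937 for the drug).

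*Hsf2*, a heat shock transcription factor, included an exon of 54 bases (chr10:57228867-57228920, coding) more with the mutation. Its Ψ was 42.6, 37.04, 40.7, 47.5 and 49.2% with the drug and 65.8, 76.1, 88.7, 84.9 and 73.5% with the mutation, against 53.5 ± 11.1% in controls. The arms did not overlap (ΔΨ -34.4 points, FDR 0.000439, limma 0.0344). For *Pecam1*, an adhesion molecule of platelets, leukocytes and endothelium, an exon of 23 bases (chr11:106523316-106523338) had Ψ of 46.05, 10.2, 9.59, 20 and 12.3% with the drug and 58.3, 50.4, 50.8, 61.2 and 60.3% with the mutation. Drug alone mouse 6 stood apart from the other drug alone mice but stayed below the mutation range (ΔΨ -36.6 points, FDR 2.59e-07, limma 0.0633).

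*Tpd52*, a vesicle trafficking protein, differed from the other exons of this direction in its controls. An exon of 27 bases (chr3:8943551-8943577) had Ψ of 39.7, 32.1, 33.3, 54.1 and 27.8% with the drug, 55.2, 68.1, 87.6, 100 and 70.8% with the mutation and 100, 100, 100, 60 and 88.9% in controls. Here the drug alone mice lay below the control range, and the drug arm was called against control (FDR 0.00228) while the mutation arm was not (FDR 0.477). The direct difference was -38.9 points (FDR 0.00259), with a limma FDR of 0.102.

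*Trim30b*, of the TRIM30 family of innate immune genes, had Ψ of 100% in all 5 mutation alone mice, with no skipping read, and of 69.3, 63.3, 59.003, 76.1 and 64.3% in the drug alone mice (exon at chr7:111511221-111511451, ΔΨ -33.6 points, FDR 0.00112, limma 0.0131). Controls resembled the drug alone mice at 68.5 ± 9.801%. The Trim30 genes are close relatives, so assignment of their reads is uncertain. The call was lost in one model of all 20 mice (FDR 0.145).

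Exons of *Zdhhc3*, a protein palmitoyltransferase, of *Pbrm1*, a subunit of a SWI/SNF remodeller, and of 4933408B17Rik completed the 8. In *Zdhhc3* (chr9:123008041-123008092) Ψ ranged from 22.3 to 58.8% with the drug and 61 to 87.6% with the mutation (ΔΨ -36.2 points, FDR 6.74e-06, limma 0.0999). *Pbrm1* (chr14:31836253-31836365) ranged from 22.4 to 52% and 54.5 to 89.9% (ΔΨ -34.2 points, FDR 0.0267, limma 0.115). Its call was lost without mutation alone mouse 3 (FDR 0.114) or drug alone mouse 10 (FDR 0.194). 4933408B17Rik had ranges of 26.2 to 53.7% and 59.2 to 78.7% (ΔΨ -33.2 points, FDR 0.0211, limma 0.0803), and lost its call without mutation alone mouse 5 (FDR 0.105). Across the 16 exons named, those included more with the drug had T at -3 in 7 of 8, and those included more with the mutation had C in 7 of 8 and A in 1.

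The base at position -3 followed the direction of the difference over all called exons. Of 19980 distinct exons tested, 35.7% had T, 57.0% C, 6.82% A and 0.536% G at that position. Among 710 exons called as included more with the drug alone, 70.8% (503) had T and 25.1% (178) had C. Among 843 exons included more with the mutation alone, 11.4% (96) had T, 74.7% (630) had C and 13.5% (114) had A. Exons with |ΔΨ| over 10 points had a similar composition, with T in 68.5% of 270 exons in the drug direction and in 11.8% of 323 in the mutation direction. The smaller set called by limma on Ψ had the same order: 109 of 117 exons with T were included more with the drug, and 74 of 99 with C and 12 of 17 with A more with the mutation.

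**Figure D2:**
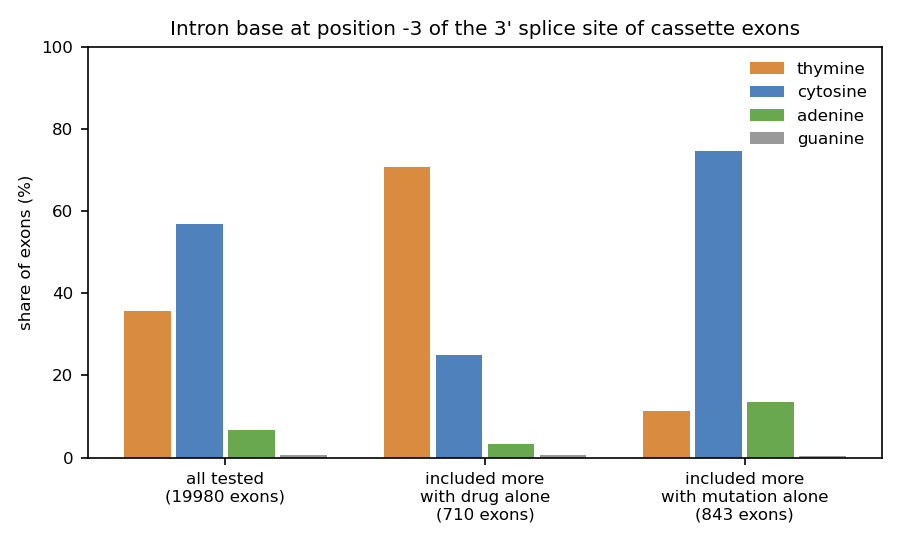
Share of exons (%) with each base at intron position -3, for all tested cassette exons and for exons called as included more with the drug alone or with the mutation alone. Thymine made up 35.7% of all tested exons, 70.8% in the drug direction and 11.4% in the mutation direction.

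Read the other way, by base, exons were called at rates of 6.93% for T, 5.59% for C, 8.15% for A and 4.67% for G when each exon was represented by its event with the most reads. Of the called exons 84.6% with T (418 of 494), 21.4% with C (136 of 636) and 17.1% with A (19 of 111) were included more with the drug. The shift was not limited to called exons. Over all tested exons with T, the median ΔΨ between the arms was 0.348 points, from a median of -0.123 for drug against control and -0.611 for mutation against control. For C the 3 medians were -0.303, -0.177 and 0.163 points, and for A they were -0.409, -0.118 and 0.346. The mutation arm thus had medians of opposite sign for T and for C or A. The drug arm had negative medians for each of these 3 bases, and for C its median was the larger in size. Among called exons, which were chosen by the direct difference, medians of both arms differed in sign between bases. Those for drug against control were 1.19 points for T, -2.11 for C and -1.56 for A. Those for mutation against control were -4.18, 1.70 and 2.87. Both arms use the same control mice.

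Called exons also differed from the rest in size and flanks. The median length was 115 bases for exons included more with the drug and 95 for those included more with the mutation, against 112 over all tested exons. Their upstream introns had medians of 1580 and 3522 bases, against 2143 for all, and the downstream introns 1663 and 3546, against 1901.5. Exon length was a multiple of 3 in 52.1% of exons in the drug direction and in 45.7% in the mutation direction, compared with 39.3% of all. These are shares and medians without a test, and exons of 1 gene are not independent.

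The supplementary lists of the study name high-confidence targets of the mutation and of the drug. They were drawn from these mice, so their calls here are a description and no independent evidence. Of 361 tested events on the mutation list 235 (65.1%) were called between the arms, 134 in the drug direction and 101 in the mutation direction. Of 165 tested events on the sudemycin list 108 (65.5%) were called, 33 in the drug direction and 75 in the mutation direction. The background was 6.67%.

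Genes whose exons the study discusses had 83 autosomal cassette exons tested in 18 genes, of which 8 exons (9.64%) in 7 genes were called between the arms. None of the 8 was called by limma. The largest difference was in *Cd97*, an adhesion G protein-coupled receptor of leukocytes (chr8:86255802-86255936, 135 bases, coding). Its Ψ was 46.8, 48.5, 47.4, 40.9 and 41.3% with the drug, 57.8, 52.6, 58.7, 59.4 and 60.1% with the mutation and 38.7, 38.5, 33.4, 32.01 and 36.7% in controls. Both arms lay above all controls and the mutation lay above the drug, with ΔΨ of -12.7 points (FDR 2.35e-08, limma 0.132).

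*Eif4a2*, an RNA helicase of translation initiation, had the reverse order at an exon of 107 bases (chr16:23112424-23112530). Its Ψ was 69.3, 72.8, 71.3, 64.03 and 69.1% with the drug, 62.9, 59.6, 60.6, 64.7 and 59.7% with the mutation and 56.3, 54.5, 54.98, 50.4 and 52.6% in controls. Both arms exceeded the controls, the drug by 15.6 and the mutation by 7.75 points, and they differed by 7.798 points (FDR 0.00907) with overlap of 1 mouse on each side. In *Ppp1r12a*, a regulatory subunit of myosin phosphatase, 2 neighbouring exons were called. The exon at chr10:107690381-107690551 had Ψ of 40.9 ± 5.098% with the drug, 31.6 ± 2.99% with the mutation and 32.3 ± 5.31% in controls (ΔΨ 9.27 points, FDR 0.000195), and its ranges overlapped. At chr10:107689813-107689980 the means were 85.8 ± 2.94%, 79.97 ± 4.21% and 89.6 ± 2.89% (ΔΨ 5.79 points, FDR 0.0426), and that call was lost without mutation alone mouse 11 (FDR 0.126) or 7 (FDR 0.252) or drug alone mouse 8 (FDR 0.216).

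The remaining called exons of these genes had smaller differences. *Hnrnph1*, an hnRNP that regulates splicing itself, had Ψ of 87.8 ± 2.37% with the drug and 92.5 ± 0.671% with the mutation (chr11:50198643-50198692, ΔΨ -4.75 points, FDR 0.00176). The translation scaffold *Eif4g1* was fully included in every drug alone and control mouse and at 100, 100, 94.99, 93.1 and 96.6% in the mutation alone mice (chr16:20675417-20675593, ΔΨ 3.06 points, FDR 0.000762). *Prkcb*, protein kinase C beta, had 98.5 ± 0.584% and 99.8 ± 0.267% (chr7:129661559-129661693, ΔΨ -1.34 points, FDR 0.00387). The eighth exon, in 4932438A13Rik, differed by 1.1 points. Leaving aside *U2af1*, *U2af2* and *Sf3b1*, 1 of the other 15 autosomal genes was called for its total level, against 36.9% of all tested autosomal genes. It was BC018473 (337 ± 95.9 against 617 ± 154 CPM, log2 fold change -0.88 ± 0.21, FDR 0.00795 by edgeR).

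At 6 exons of the same genes each arm was called against the control mice, yet the direct comparison was not called. The exon of 4932438A13Rik at chr3:36921892-36921954 had Ψ of 43.4, 52.1, 46.7, 48.4 and 31.9% with the drug, 43.3, 38.8, 46.5, 40.2 and 45.7% with the mutation and 30.4, 28.8, 29.1, 23.9 and 31.3% in controls. All 10 mice of the arms lay above the controls, and the arms overlapped (ΔΨ 1.61 points, FDR 0.774). An exon of *Fn1*, the matrix protein fibronectin (chr1:71650234-71650503), had 14.9 ± 3.47%, 16.1 ± 1.24% and 9.26 ± 1.32% (FDR 0.524). In *Cd97* a second exon (chr8:86254010-86254156), which shares a flank with the one above, had 49.2 ± 6.15%, 50.2 ± 4.74% and 37.1 ± 5.42% (FDR 0.790).

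Inclusion was lower than control in both arms at the other 3. *Eif4a2* had 64.6 ± 7.22%, 64.7 ± 6.44% and 74.5 ± 4.42% (chr16:23109193-23109332, FDR 0.839). *Prkcb* had 77.1 ± 3.12%, 73.9 ± 3.26% and 87.2 ± 2.89% (chr7:129771170-129771385, FDR 0.501). *Fam96a*, a factor of cytosolic iron-sulfur assembly, had 88.3 ± 3.12%, 85.4 ± 2.63% and 93.7 ± 1.802% (chr9:65981239-65981288, FDR 0.270). The missed threshold does not show that drug and mutation act alike there: leaving out 1 mouse at a time, ΔΨ ran from -2.84 to 1.04 points for *Cd97* and from -1.997 to 2.54 for *Eif4a2*. The 2 side comparisons share the control mice.

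Alternative 3′ sites differed in 134 of 2465 events (5.44%). The longer exon form was used more with the drug in 93 (3.77%) and with the mutation in 41 (1.66%), and limma on Ψ called 55. Against the shared controls 19 (0.789%) were called for the drug and 71 (2.92%) for the mutation. For these events Ψ is the share of the longer form. The largest difference was in *Itgb2l*, an integrin beta subunit related to that of leukocytes, where the longer exon (chr16:96647656-96647875, shorter form ending at 96647832) made up 78.6, 88.4, 83.9, 80.4 and 68.2% with the drug and 31.5, 24.9, 19.3, 32.6 and 19.2% with the mutation. Controls had 76.8 ± 8.21%, close to the drug, and ΔΨ was 54.4 points (FDR 0.00127, limma 0.00115). In *Slc35c2*, a nucleotide sugar transporter relative, the ranges were 51.7 to 100% and 20.8 to 35.8% (ΔΨ 41.1 points, FDR 0.00104, limma 0.0465).

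In the mutation direction *Arfgap1*, a GTPase-activating protein of the Golgi, used its longer exon (chr2:180702239-180702519) at 10.9, 28.7, 8.8, 12.3 and 15.6% with the drug and 47.7, 41.96, 40, 53.2 and 31.96% with the mutation. Controls had 15.6 ± 3.07%, so the drug alone mice stayed near them (ΔΨ -27.7 points, FDR 0.000395, limma 0.0285). *Wbp1*, a WW domain-binding protein, had ranges of 17.7 to 43.4% and 46.5 to 66.99% (ΔΨ -27.5 points, FDR 0.0144, limma 0.0518), with controls spread from 0 to 68%.

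Alternative 5′ sites differed in 33 of 1434 events (2.3%), of which 20 (1.39%) used the longer form more with the drug and 13 (0.907%) more with the mutation; limma called 4. The counts against control were 2 (0.139%) for the drug and 18 (1.26%) for the mutation. *Tmem209*, a nuclear envelope protein, used the longer form at 96.2, 100, 97.4, 98.01 and 100% with the drug and 73.7, 73.9, 77.9, 70.5 and 78.1% with the mutation. The controls (97.7 ± 3.196%) overlapped the drug alone mice only (ΔΨ 23.5 points, FDR 5.71e-06, limma 0.000687). *Gpr160*, an orphan G protein-coupled receptor, had ranges of 46.6 to 56.8% and 25.3 to 39.5% (ΔΨ 21.5 points, FDR 0.0267, limma 0.0503). In the mutation alone mice *Trim30b* and *Lyrm5*, a mitochondrial protein, had 100% of the longer form in every mouse, against 64.4 to 79% and 67.6 to 94.4% in the drug alone mice. ΔΨ was -29.8 points for *Trim30b* (FDR 0.00153, limma 0.000896) and -16.95 for *Lyrm5* (FDR 0.00104, not called by limma at 0.379). The *Trim30b* event shares a junction with its cassette exon.

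Mutually exclusive exons differed in 29 of 190 events (15.3%), 9 (4.74%) with more of the upstream exon in the drug arm and 20 (10.5%) in the mutation arm, and limma called 21. Against control 9 (4.71%) and 10 (5.1%) were called. *Rab6*, a small GTPase of Golgi transport with a pair of isoforms from duplicated exons, had the clearest shift (chr7:107778180-107778285 and chr7:107778352-107778457). The upstream exon made up 16.5, 17.9, 19.6, 14.6 and 13.1% with the drug, 38.2, 37.9, 35.3, 44.2 and 42.8% with the mutation and 36.4, 32.4, 30.4, 33.7 and 29.6% in controls, on 1554 to 2529 reads per mouse of the arms. The drug alone mice were all below the controls, and the mutation mean was above the control mean. ΔΨ between the arms was -23.4 points (FDR 3.46e-14, limma 0.000325), with -16.2 points for the drug (FDR 6.69e-06) and 7.19 for the mutation (FDR 0.00374) against the shared controls.

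*Ate1*, which attaches arginine to protein ends, had Ψ of 58.98, 66.9, 66.3, 71.9 and 62.6% with the drug and 56.3, 51.7, 55.5, 49.6 and 50.4% with the mutation. The controls were at 54.4 ± 2.94%, near the mutation (ΔΨ 12.6 points, FDR 0.00121, limma 0.0179). *Anp32e*, a chaperone of histone H2A.Z, had ranges of 48.9 to 60.7% and 41.7 to 47.3% (ΔΨ 8.602 points, FDR 0.0303, limma 0.0559). The cyclic AMP phosphodiesterase *Pde8a* had 3.85 to 21.7% and 23.1 to 60% (ΔΨ -24.7 points, FDR 0.0378, limma 0.0438).

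**Figure D3:**
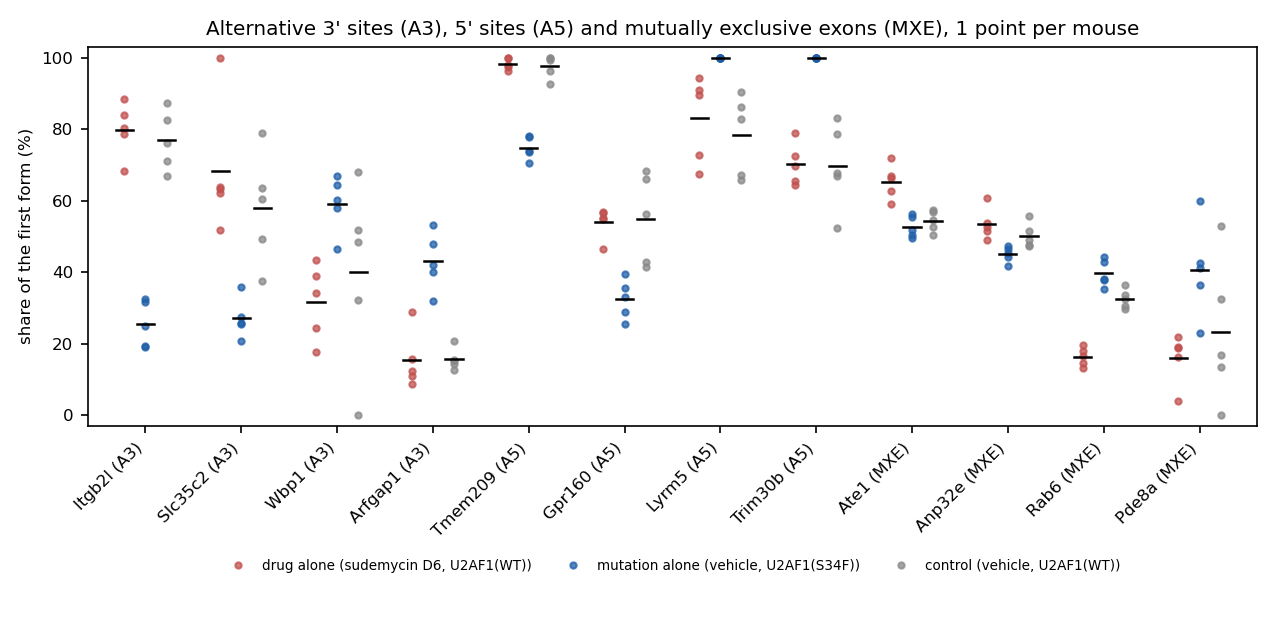
Ψ (%) of the named alternative 3′ site, alternative 5′ site and mutually exclusive exon events, 1 point per mouse, for drug alone, mutation alone and control mice (5 each) with bars at the means. For alternative sites Ψ is the share of the longer exon and for mutually exclusive exons that of the upstream exon; *Rab6* lay at 13.1 to 19.6% with the drug and 35.3 to 44.2% with the mutation.

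The total use of junctions was close between the arms. Autosomal junction reads that skip at least 1 exon made up 6.82% ± 0.137 with the drug alone and 6.63% ± 0.268 with the mutation alone (SD, n = 5 each), and 6.84% ± 0.0930 in controls. The difference of 0.186 points did not pass (exact two-sided permutation test, p = 0.206, where the smallest possible p is 0.00794). Reads on junctions with annotated splice sites at both ends made up 97.7% ± 0.243 and 97.6% ± 0.251, a difference of 0.0559 points (p = 0.730, exact permutation test) whose sign turned without drug alone mouse 8 (-0.00225) or mutation alone mouse 5 (-0.0247). Individual exons thus moved in each direction without a detectable shift in these totals.

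At the gene level 5240 of 14216 autosomal genes (36.9%) were called between the arms (edgeR, FDR<10%), 2665 (18.7%) higher with the drug and 2575 (18.1%) higher with the mutation. The median absolute log2 fold change of called genes was 0.47, and 757 passed 1, of which 472 were higher with the drug. The 5 values of each arm did not overlap in 3037 genes (21.4%). Against the shared controls 441 genes (3.1%) were called for the drug alone, 170 higher (1.2%) and 271 lower (1.91%), and 5627 (39.4%) for the mutation alone, 2783 higher (19.5%) and 2844 lower (19.9%). Leaving out 1 mouse at a time gave 185 (without control mouse 1) to 706 (without control mouse 2) genes for the drug and 4629 to 6670 for the mutation. Levels are given as CPM, counts scaled to the library size of each mouse as adjusted by TMM factors of all 20 mice. They can be compared between mice for a gene but not between genes. The p-values measure the spread between mice whose donor marrow was pooled within a genotype.

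Among the factors that recognise the 3′ splice site, *U2af1* itself was modestly lower with the drug than with the mutation, and both arms lay above the controls. Its level was 40.3, 44.7, 38.5, 41.8 and 48.3 CPM with the drug, 51.6, 53.7, 46.4, 54.3 and 48.9 with the mutation and 38.4, 35.5, 35.5, 36.3 and 34.8 in controls. Apart from mouse 12 the drug alone mice lay below all mutation alone mice (log2 fold change -0.26 ± 0.08 SE, FDR 0.0224), but scaling to total counts removed the call (FDR 0.101). Whether reads of the human transgene were counted here was not tested. The *Sf3b1* level, the target of the drug, was 730.1 ± 61.9 and 773 ± 19.3 CPM and was not called (log2 fold change -0.09 ± 0.08, FDR 0.454).

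*Sf3b3*, another subunit of the SF3b complex, had 250.5, 221, 187, 276 and 275 CPM with the drug, 162, 176, 155, 145 and 154 with the mutation and 157, 165, 149.8, 155 and 154 in controls. The drug alone mice were above every other mouse, by 0.61 ± 0.11 on the log2 scale (FDR 0.00187), and the mutation and control mice overlapped. *U2af2*, the partner of U2AF1, was 132 ± 9.03 CPM with the drug, 92.2 ± 7.999 with the mutation and 116 ± 8.599 in controls (log2 fold change 0.52 ± 0.08, FDR 0.000621), with the mutation alone mice lowest. *Sf1*, which binds the branch point before U2, was also lowest with the mutation (193 ± 16.4, 131 ± 9.45 and 208 ± 20.8 CPM, FDR 0.000617). *Sf3b4*, of the SF3b complex, was higher with the drug by 0.57 on the log2 scale (FDR 0.00109). Of 17 genes of the U2AF and SF3 complexes 6 were higher with the drug and 4 with the mutation (median log2 fold change 0.11). Over all tested autosomal genes the shares were 18.7% and 18.1% and the median was 0.002.

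Lists of other splicing factors had shares on either side of those of all tested genes, of which 18.7% were higher with the drug and 18.1% with the mutation. Of 18 SR protein genes and their kinases 3 were higher with the drug, among them *Clk3* (0.38, FDR 0.00332), and 2 with the mutation, among them *Srsf10* (-0.44, FDR 0.0144), a count that was 5 without drug alone mouse 12 and 4 without mutation alone mouse 5. Of 24 hnRNP genes 6 were higher with the drug, led by *Pcbp2* (195 ± 25.7 against 119 ± 13.1 CPM, 0.71, FDR 0.000706), and 5 with the mutation, including *Hnrnpr* (-0.35, FDR 0.0136); scaled to total counts the former count was 5 and the latter 0, and the latter was 3 without mutation alone mouse 1 or 7 or drug alone mouse 8. Among 12 nonsense-mediated decay factors the exon junction protein *Casc3* was higher with the drug (0.51, FDR 0.00111) and *Magoh* with the mutation (-0.39, FDR 0.00168), and 2 were called in each direction.

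The largest gene differences in favour of the drug arose where the mutation alone mice were near 0. *Hist1h4m*, a histone H4 gene, had 32.8, 44.5, 65.6, 31.1 and 18.1 CPM with the drug, 0.591, 0.504, 0.425, 0.601 and 0.560 with the mutation and 30.6, 36.7, 20.4, 23.5 and 33.96 in controls. Drug alone and control mice overlapped and all mutation alone mice were far below (log2 fold change 6.06 ± 0.34, 66.7-fold in the fit, as are the folds below, FDR 1.70e-06). Histone H4 copies are nearly identical, so reads can be split among them. *Lipg*, endothelial lipase, had 17.03, 36.1, 17.7, 20.1 and 20.2 CPM with the drug and 0.414, 1.19, 0.332, 0.601 and 0.228 with the mutation (log2 fold change 5.22 ± 0.40, 37.2-fold, FDR 1.88e-05), and controls ranged over 2.97 to 25.98 CPM.

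*Fpr3*, a formyl peptide receptor gene, stood out for its controls. It had 1.75, 3.02, 2.47, 3.13 and 3.75 CPM in the drug alone mice, while the mutation alone mice had 3, 0, 14, 5 and 2 reads and the controls 2, 0, 0, 0 and 3. Every drug alone mouse was above every other mouse (log2 fold change 4.51 ± 0.53 against the mutation, FDR 0.000184; FDR 6.07e-05 against control). *Matn4*, an extracellular matrix protein, had 0, 3, 1, 0 and 3 reads in the mutation alone mice and 0.508 to 8.83 CPM in the drug alone mice, with no fold given against so few reads (FDR 0.00155).

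*Gbp1*, an interferon-inducible GTPase, and *Stfa1*, a stefin of neutrophils, each had 1 high drug alone mouse. *Gbp1* was 5.02, 86.9, 12.6, 3.79 and 5.44 CPM with the drug and 1.26, 0.588, 1.2, 2.14 and 0.438 with the mutation (log2 fold change 4.29 ± 0.96, FDR 0.00729), and without mouse 8 its log2 fold change was 2.54 (FDR 0.00349). *Stfa1* was 7.08, 9.496, 55.03, 5.81 and 2.74 CPM with the drug and 0.631, 0.521, 0.0185, 2.48 and 0.0175 with the mutation (4.37 ± 1.10, FDR 0.0127). Gm4737 (4.71, FDR 0.000185), *Ifi202b* (4.24, FDR 6.73e-05), *Rnaset2b* (3.65, FDR 2.58e-05) and *Trim30d* (3.09, FDR 0.000847) completed the 10, and their controls lay near the drug. The last 3 belong to families of close copies, and their counts are uncertain for that reason.

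Higher with the mutation alone were D930028M14Rik and *Slc15a2*, a peptide transporter. *Slc15a2* had 3.78, 1.22, 4.06, 5.68 and 3.56 CPM with the drug, 28.7, 33.1, 20.7, 29.5 and 27.9 with the mutation and 5.03, 12.2, 4.03, 6.28 and 7.37 in controls. The mutation alone mice exceeded every other mouse (log2 fold change -2.92 ± 0.30, 7.58-fold higher with the mutation, FDR 0.000119). D930028M14Rik had 0.414, 0.147, 0.247, 0.201 and 0.150 CPM with the drug and 2.72, 2.42, 1.66, 2.67 and 2.96 with the mutation (-3.22 ± 0.30, FDR 5.62e-05). *Scin*, an actin-severing protein, was 0.348 ± 0.153 CPM with the drug, 2.03 ± 0.490 with the mutation and 1.37 ± 0.244 in controls (-2.43 ± 0.31, FDR 0.000286), and it was also below control with the drug (FDR 0.00757).

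The others of the 10 were Gm13225 (-2.14, FDR 0.000723), I830012O16Rik (-2.11, FDR 0.0101), the zinc finger genes *Zfp934* (-2.04, FDR 0.00106) and *Zfp808* (-1.96, FDR 0.00241), the natural killer receptors *Klra8* (-1.997, FDR 0.00506) and *Klri2* (-1.87, FDR 0.00361), and the meiotic recombinase *Dmc1* (-1.89, FDR 0.00293). Several of these have close copies as well. Of these 20 genes *Fpr3* and *Scin* were called for the drug against the control mice, and the other 18 were not.

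**Figure D4:**
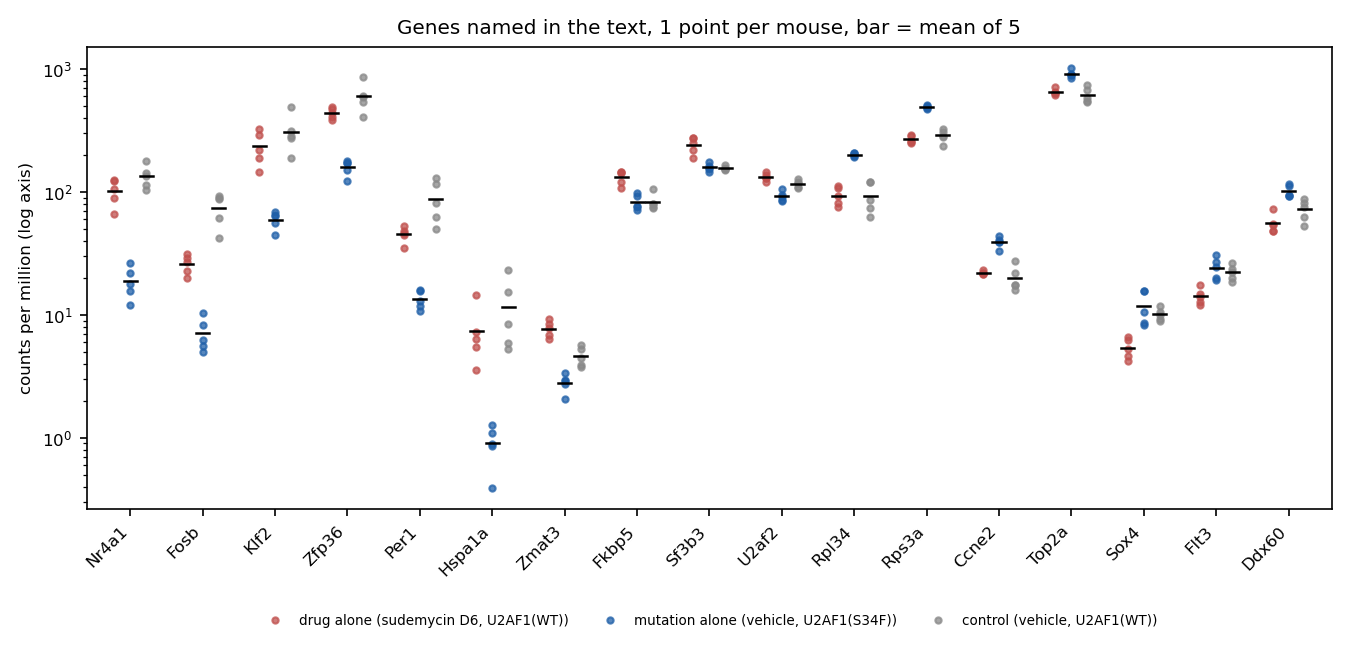
CPM (log axis) of named genes, 1 point per mouse, for drug alone, mutation alone and control mice (5 each), with bars at the group means. *Nr4a1* lay at 65.6 to 124 CPM with the drug and 12.1 to 26.3 with the mutation, while *Slc15a2* lay at 1.22 to 5.68 and 20.7 to 33.1.

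Immediate-early genes, transcription factors and feedback regulators that respond within minutes to stimulation, were higher with the drug in 18 of 25 cases and with the mutation in 0, by edgeR, where 18.7% and 18.1% of all genes were called in each direction. Their median log2 fold change was 0.64. The nuclear receptor *Nr4a1* had 65.6, 89.1, 124, 107 and 122 CPM with the drug, 26.3, 17.7, 22.005, 12.1 and 15.7 with the mutation and 179, 103.1, 135, 144 and 114 in controls. The mutation alone mice lay below all others, and drug and control mice overlapped (log2 fold change 2.43 ± 0.22, 5.38-fold, FDR 6.70e-05). In *Klf2*, a transcription factor of quiescent leukocytes and endothelium, the values were 145, 328, 289.5, 189 and 221 CPM with the drug and 69.02, 44.5, 65.2, 63.2 and 55.9 with the mutation (1.97 ± 0.21, FDR 0.000119).

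*Fosb*, an AP-1 subunit, showed an order in which both arms left the control. Its level was 26.04 ± 4.72 CPM with the drug, 7.08 ± 2.17 with the mutation and 74.4 ± 21.9 in controls (1.87 ± 0.20, FDR 0.000119), and each arm was below control (FDR 0.00273 and 3.12e-05). *Zfp36*, which promotes decay of cytokine mRNA, was 438 ± 43.01, 159 ± 22.6 and 601 ± 164 CPM (1.45 ± 0.11, FDR 1.88e-05). Summed over the list, the drug alone mice had 3759 to 4805 CPM, the mutation alone mice 1933 to 2796 and the controls 4344 to 8712, so the arms did not overlap. Against the shared controls 12 of 25 were lower with the drug and 25 of 25 with the mutation, where 1.91% and 19.9% of all genes were.

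Lists related to these were called less evenly, beside a background of 18.7% of all genes higher with the drug and 18.1% with the mutation. Of 23 inflammatory cytokines and NF-kappaB targets 9 were higher with the drug and 2, *Il6* (-1.62, FDR 0.00199) and *Ccl9* (-0.42, FDR 0.0276), with the mutation (median 0.19). The inhibitor *Tnfaip3* had 56.9 ± 8.31 against 32.4 ± 2.81 CPM and 100.1 ± 24.9 in controls (FDR 0.000266), and *Nfkbiz*, a co-regulator of these genes, 146 ± 25.1, 76.1 ± 17.3 and 276 ± 22.7 (FDR 0.00110). Their levels were below control in both arms, and lower in the mutation arm. Among 25 genes of the integrated stress and unfolded protein response 5 were higher with the drug, such as *Atf3* (1.44, FDR 0.000644) and *Ppp1r15a* (1.14, FDR 0.00379). With the mutation 1 was higher, *Xbp1* (-0.31, FDR 0.0177). The share higher with the drug is near the background. Its count was 2 when scaled to total counts or without drug alone mouse 12. It was 3 without drug alone mouse 10 or mutation alone mouse 1, 3 or 7. Against the shared controls 0 of these 25 were higher and 7 lower with the drug, and 2 higher and 10 lower with the mutation.

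Beside 18.7% and 18.1% of all genes, 11 of 21 glucocorticoid-responsive genes were higher with the drug and 0 with the mutation (median 0.39). Of 19 clock genes 8 and 0 were (median 0.22). The latter 8 were 5 without mutation alone mouse 1 or 3. Against the shared controls 2 of the 21 glucocorticoid genes were higher and 3 lower with the drug, and 2 higher and 8 lower with the mutation. Their sums overlapped, at 3436 to 5898 CPM with the drug and 3353 to 5266 with the mutation. For the 19 clock genes these counts were 0 and 2 with the drug, and 0 and 9 with the mutation. All genes gave 1.2% and 1.91% with the drug, and 19.5% and 19.9% with the mutation. *Per1*, a clock repressor on both lists, had 34.9, 46.1, 44.3, 47.9 and 52.7 CPM with the drug, 16.05, 11.9, 12.9, 10.8 and 15.5 with the mutation and 81.2, 50.3, 115, 131 and 62.9 in controls. The drug alone mice were above all mutation alone mice, and most controls were higher still (log2 fold change 1.75 ± 0.13, FDR 1.58e-05). *Fkbp5*, a chaperone that restrains the glucocorticoid receptor, differed from this in its controls: 132 ± 17.2 CPM with the drug, 83.1 ± 11.9996 with the mutation and 82.8 ± 12.96 in controls (0.66, FDR 0.00155), with the drug arm called against control (FDR 0.0136) and the mutation arm not (FDR 0.974). *Il1r2*, the interleukin 1 decoy receptor, was 91.5 ± 10.9, 47.6 ± 10.2 and 60.6 ± 6.04 CPM (FDR 0.000644). *Dusp1*, a phosphatase of MAP kinases, was 349.8 ± 34.3, 173 ± 49.2 and 760.4 ± 244 CPM (FDR 0.00106), and the clock repressor *Nr1d1* 1.99 ± 0.522, 0.926 ± 0.153 and 1.502 ± 0.312 (FDR 0.00428).

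Genes of the p53 response were higher with the drug in 9 of 23 cases and with the mutation in 1 (3 without drug alone mouse 9), *Ccng1* (median 0.16). Over all genes these shares were 18.7% and 18.1%. Against the shared controls 2 of the 23 were higher and 4 lower with the drug, and 5 higher and 10 lower with the mutation. All genes gave 1.2% and 1.91% with the drug, and 19.5% and 19.9% with the mutation. Sums of the list overlapped, at 1293 to 1647 CPM with the drug, 1202 to 1363 with the mutation and 1333 to 1985 in controls. *Zmat3*, an RNA-binding p53 target, had 6.89, 7.798, 6.31, 8.42 and 9.19 CPM with the drug, 2.898, 3.395, 2.95, 2.07 and 2.73 with the mutation and 3.92, 4.501, 5.67, 5.25 and 3.796 in controls. The groups were ordered drug, control, mutation with no overlap between drug and control or control and mutation (log2 fold change 1.44 ± 0.16, FDR 0.000148), and each arm was called against control in its own direction (FDR 0.0410 and 0.00607). *Plk3*, a stress kinase, was 41.8 ± 6.75 and 18.7 ± 5.16 CPM (1.16, FDR 0.000668), with controls at 98.5 ± 26.99. The pro-apoptotic gene *Pmaip1* was 25.9 ± 6.1 and 12.3 ± 3.32 (1.07, FDR 0.00197), with controls at 50.3 ± 4.85. Of 16 BCL2 family genes 6 were higher with the drug, including the pro-apoptotic *Bmf* (0.85, FDR 0.00155) and the anti-apoptotic *Mcl1* (0.35, FDR 0.00937), and 1 with the mutation. Against the shared controls 0 of them were higher and 2 lower with the drug, and 1 higher and 6 lower with the mutation. Their sums were 911 to 1064 CPM with the drug, 762 to 882 with the mutation and 1080 to 1322 in controls.

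Heat shock chaperones were divided. The stress-inducible *Hspa1a* was 3.54, 7.27, 5.5, 14.5 and 6.36 CPM with the drug, 1.28, 0.857, 0.886, 0.389 and 1.09 with the mutation and 5.92, 5.28, 8.45, 23.002 and 15.4 in controls. Drug and control mice overlapped and the mutation alone mice were below them (7.96-fold, log2 fold change 2.99 ± 0.39, FDR 0.000338), as in its near-identical neighbour *Hspa1b* (2.76, FDR 0.000228). Of 20 genes, beside 18.7% and 18.1% of all genes, 3 were higher with the drug and 6 with the mutation. The latter count was 1 when scaled to total counts or without mutation alone mouse 1 or 5, 2 without drug alone mouse 8 or 12, and 3 without drug alone mouse 9 or mutation alone mouse 3.

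Cytosolic ribosomal protein genes were higher with the mutation in 61 of 77 cases and with the drug in 1, *Rpl29* (log2 fold change 1.69, FDR 0.000932), with a median of -0.38. Over all genes these shares were 18.1% and 18.7%. The list summed to 18695 to 22990 CPM with the drug and 26439 to 27811 with the mutation, without overlap, and to 17675 to 27307 in controls. *Rps3a* had 284, 253, 262, 251.8 and 289.6 CPM with the drug, 470.1, 512, 485, 496 and 492 with the mutation and 239, 326, 281, 287 and 309 in controls. Drug and control mice overlapped (log2 fold change -0.88 ± 0.07, FDR 2.71e-05). *Rpl34* had 107, 81.3, 92.3, 112 and 75.2 CPM with the drug and 191, 209, 202, 208 and 195 with the mutation (-1.11 ± 0.11, FDR 8.22e-05). Many of these genes have processed copies, which can share reads. Against the shared controls 0 of 77 were called for the drug, and 62 were higher and 1 lower for the mutation.

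Proliferation genes followed. Of 36 cell cycle and mitosis genes 19 were higher with the mutation and 2 with the drug (median -0.19), with sums of 6768 to 7752 CPM against 5079 to 6257. *Ccne2*, the cyclin of entry into S phase, had 21.6, 21.8, 21.3, 23.2 and 21.9 CPM with the drug, 43.8, 38.8, 33.3, 40.8 and 38.9 with the mutation and 17.5, 27.6, 17.4, 16.01 and 22.03 in controls (-0.84 ± 0.08, FDR 5.62e-05). *Tyms*, thymidylate synthase, was 53.95 ± 5.74 and 79.5 ± 3.24 CPM (FDR 0.000510), and *Top2a*, the topoisomerase of dividing cells, 653 ± 37.3 and 914 ± 62.9 (FDR 0.00126). None of these 3 overlapped between the arms. The 2 exceptions were *Plk1* (0.45, FDR 0.0107) and *Cdt1* (0.23, FDR 0.0754), and the latter call was lost without drug alone mouse 8 or 10 or mutation alone mouse 1, 3 or 7 (FDR 0.119 to 0.156). Replication-dependent histone genes were called no more often than the 18.7% and 18.1% of all genes, 12 of 67 higher with the drug, such as *Hist4h4* (0.897, FDR 0.000158), and 8 with the mutation, such as *Hist1h2bp* (-1.28, FDR 0.000278), the latter 15 without drug alone mouse 9. These mRNAs lack poly(A) tails, and the libraries were depleted of ribosomal RNA, not selected for poly(A).

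**Figure D5:**
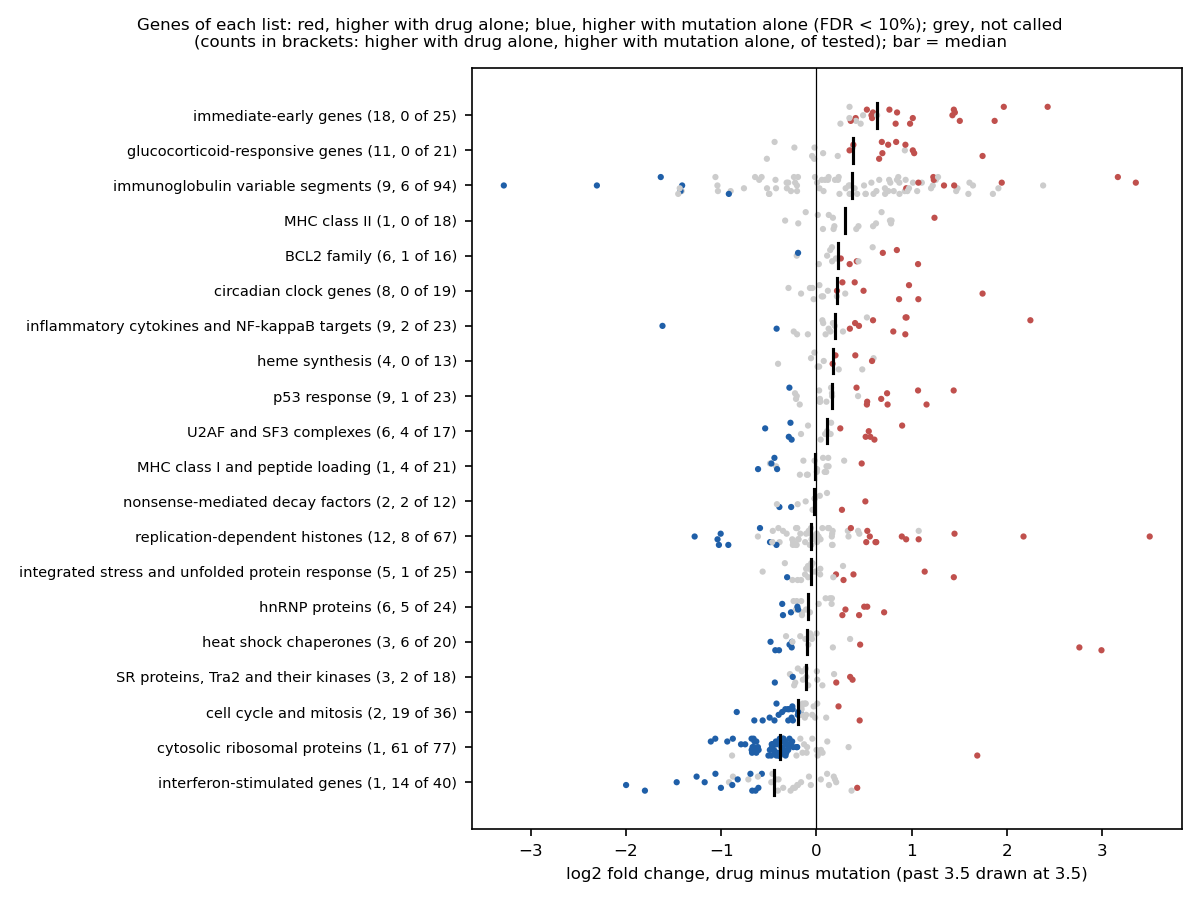
Log2 fold change (drug alone minus mutation alone) of every tested gene in 20 lists, with coloured points for genes called at FDR<10% and a bar at the median of each list. Immediate-early genes had a median of 0.64 and ribosomal protein genes of -0.38.

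Interferon-stimulated genes were higher with the mutation in 14 of 40 cases and with the drug in 1, *Ly6e* (median -0.44), where 18.1% and 18.7% of all genes were. The count of 14 depended on 1 mouse. Without drug alone mouse 8 it was 31 of 40 with a median of -0.84, without drug alone mouse 12 it was 9, and the other single omissions gave counts within 1.5 times the main one. The sums of the list were 1254 to 2723 CPM with the drug, 1520 to 2599 with the mutation and 1552 to 1850 in controls. Against the shared controls 0 of the 40 were higher and 4 lower with the drug, and 14 higher and 3 lower with the mutation. All genes gave 1.2% and 1.91% with the drug, and 19.5% and 19.9% with the mutation. *Mx1*, an antiviral GTPase, had 6.59, 7.21, 4.71, 5.11 and 5.98 CPM with the drug, 14.04, 16.9, 21.03, 7.46 and 11.4 with the mutation and 15.4, 12.4, 10.8, 8.67 and 12.4 in controls. All drug alone mice were below the mutation alone and control mice (log2 fold change -1.26 ± 0.24, FDR 0.00260). *Ddx60*, an antiviral helicase, was 55.6 ± 9.76 and 102 ± 11.2 CPM without overlap (-0.88 ± 0.12, FDR 0.000346). The *Ly6e* call (0.43, FDR 0.0456) was lost without mutation alone mouse 1 (FDR 0.102).

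Antigen presentation differed in few genes. Of 21 MHC class I and peptide loading genes 4 were higher with the mutation and 1 with the drug, near or below the 18.1% and 18.7% of all genes. *B2m*, the light chain of class I molecules, had 444, 391, 556, 423 and 284 CPM with the drug and 568, 621, 696, 714 and 596 with the mutation (-0.61 ± 0.15, FDR 0.0107), without overlap, and the peptide-trimming enzyme *Erap1* was 58.9 ± 5.404 and 78.2 ± 5.15 CPM (FDR 0.00272). For MHC class II 1 of 18 genes was higher with the drug, a share under the background, and the count was 6 without mutation alone mouse 3, 5 without drug alone mouse 9 and 0 without most of the other mice. Of 94 immunoglobulin variable segments tested 9 were higher with the drug and 6 with the mutation, also below the background; these were 15 and 2 without drug alone mouse 9, 14 and 2 without drug alone mouse 8, and 5 and 3 without mutation alone mouse 11.

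Markers of blood cell types were then described as lists. In whole marrow fewer cells of a type and less RNA per cell cannot be told apart. As a check of the tissue, all 24 late neutrophil genes, 21 mature B cell genes and 25 erythroid genes were tested and none was at 0 over the 10 mice. Late neutrophil genes summed to 72497 to 127485 CPM with the drug and 98680 to 159802 with the mutation.

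Markers of stem and progenitor cells were higher with the mutation in 10 of 25 genes and with the drug in 0 (edgeR, median -0.42), where 18.1% of all genes were called in that direction. One model of all 20 mice with a block on the mouse number called 0 in either direction. *Sox4*, a transcription factor of progenitors, had 6.25, 4.19, 4.67, 6.56 and 5.27 CPM with the drug, 15.8, 15.6, 8.34, 8.52 and 10.6 with the mutation and 11.8, 9.25, 10.6, 9.997 and 8.89 in controls. The drug alone mice were below every mouse of the other groups (log2 fold change -1.12 ± 0.21, FDR 0.00238), and the drug arm was called against control (FDR 0.00803) while the mutation arm was not (FDR 0.412). *Flt3*, the receptor of multipotent progenitors, had 14.7, 12.8, 14.1, 17.5 and 12.1 CPM with the drug, 27.1, 30.5, 20.03, 19.3 and 24.5 with the mutation and 26.4, 18.3, 22.4, 23.7 and 20.1 in controls (-0.77 ± 0.14, FDR 0.00199), again with the drug alone mice lowest. *Myb* was 132 ± 13.9 against 178 ± 12.7 CPM (FDR 0.00359). The sums were 402 to 508 CPM with the drug, 534 to 656 with the mutation and 468 to 567 in controls, so the arms did not overlap. Against the shared controls 0 of the 25 were higher and 4 lower with the drug, and 7 higher and 2 lower with the mutation. All genes gave 1.2% and 1.91% with the drug, and 19.5% and 19.9% with the mutation.

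In the neutrophil lineage 7 of 15 primary granule genes were higher with the mutation (4 without mutation alone mouse 11) and 1 with the drug. The lectin *Fcnb* was among the former (205 ± 36.1 against 330.4 ± 56.4 CPM, FDR 0.00370), and *Hdc*, the histamine-forming enzyme, was the exception (482 ± 74.2 against 319 ± 45.7 CPM, FDR 0.00519). Late neutrophil genes gave 5 of 24 higher with the drug and 3 with the mutation, and these shares, like those of monocytes and macrophages, were near or below the 18.7% and 18.1% of all genes. *S100a8*, a subunit of calprotectin, was 12667 ± 5101 against 26163 ± 5356 CPM (-1.05, FDR 0.00746) with overlap through drug alone mouse 9, while the interleukin 1 decoy receptor *Il1r2* described above was higher with the drug. Among monocyte genes 4 of 21 were higher with the drug, including the receptor *Csf1r* (347 ± 63.5 against 195 ± 37.5 CPM, FDR 0.00217), and 3 with the mutation, including the chemokine receptor *Ccr2* (280.05 ± 41.95 against 496 ± 124 CPM, FDR 0.00464). Macrophage genes gave 1 and 3 of 21, with *Fth1*, a ferritin subunit, higher with the drug (0.57, FDR 0.00115) and *Vcam1*, an adhesion molecule, with the mutation (-0.57, FDR 0.0150). Without mutation alone mouse 5 the 4 monocyte genes were 8, without mouse 7 the 3 were 5, and without mutation alone mouse 1 or 3 the 3 macrophage genes were 1.

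Erythroid genes gave 2 of 25 higher with the drug and 0 with the mutation, with *Hbb-b2*, a beta globin gene with near-identical copies, at 14.5 to 95.9 against 8.74 to 34.6 CPM (FDR 0.0359). Of 13 heme synthesis genes 4 were higher with the drug, such as *Ppox* (0.41, FDR 0.000617), and 0 with the mutation, the former 2 without mutation alone mouse 5. Mature B cell genes gave 3 of 21 and 0, with the tetraspanin *Cd37* higher with the drug (0.57, FDR 0.00305). Pro-B and pre-B genes gave 1 and 3 of 21, and *Dntt*, the terminal transferase of early lymphocytes, was 2.82 ± 1.58 against 11.6 ± 8.29 CPM (FDR 0.00877). T and NK cell genes gave 3 and 3 of 27, with *Cd3e*, a T cell receptor chain, higher with the drug (1.97, FDR 0.00376) and the NK receptor *Klrb1c* higher with the mutation (-1.12, FDR 0.0244). Apart from heme synthesis these shares were below 18.7% and 18.1%. Single mice moved them: the erythroid count was 4 without mutation alone mouse 3, the 3 pro-B and pre-B genes were 7 without drug alone mouse 10 and 5 without mutation alone mouse 7, and the T and NK genes higher with the drug were 7 without drug alone mouse 9 and 1 without drug alone mouse 10 or 12 or mutation alone mouse 5, 7 or 11.

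The remaining lists were megakaryocytes and platelets with 1 of 22 higher with the drug, the adhesion receptor *Selp* (1.13, FDR 0.00512), and 3 with the mutation, plasma cells with 1 and 1 of 15, and dendritic cells with 2 and 2 of 17, where the lysosomal hydrolase *Naaa* was higher with the drug (0.76, FDR 0.00677). Over all genes the shares were 18.7% and 18.1%. Eosinophil, basophil and mast cell genes gave 2 and 5 of 19, with the interleukin 6 receptor *Il6ra* higher with the drug (0.64, FDR 0.000614). The 5 were 2 without drug alone mouse 8, 9 or 12 or mutation alone mouse 3 and 3 without mutation alone mouse 1. The 2 dendritic genes higher with the mutation were 5 without mutation alone mouse 7, 4 without drug alone mouse 6 and 1 without drug alone mouse 9 or mutation alone mouse 1 or 11, and the 3 megakaryocyte genes were 5 without drug alone mouse 6 or 10 and 1 without mutation alone mouse 3. Of 23 genes of marrow stroma and vessels 1 was higher with the drug, the collagen *Col1a1* (13.2 ± 2.88 against 4.87 ± 0.941 CPM, 1.43 ± 0.18, FDR 0.000271), and 2 with the mutation. The latter count was 9 without drug alone mouse 6, 1 without mutation alone mouse 7 and 0 without drug alone mouse 8, 10 or 12 or mutation alone mouse 3, and the former was 3 without drug alone mouse 9. What part these marker differences have in the other gene differences was not tested.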

How the data were processed

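RNA was measured by stranded, ribosomal RNA-depleted paired sequencing (126 bases) of whole bone marrow, in 5 mice per group. The authors aligned reads to mm9 with TopHat2 2.0.8 and deposited raw read counts per gene and per junction, without pooling mice. The program that counted genes is not given in the sources used here, and reads shared by near-identical genes can be misassigned.

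From these counts, genes were filtered (filterByExpr), scaled by TMM and tested with the edgeR 4.0.16 quasi-likelihood test on the 10 mice of both arms, with all chromosomes in the fit and FDR<10% as the threshold. Control comparisons used the same test. Prior count was 2. Exon events were built with exons of the GENCODE vM1 annotation from the 245567 of 554616 junctions with both splice sites annotated. Of these junctions 181355 were annotated introns and 64212 were unannotated pairings of annotated sites. Events with under 10 reads per mouse on average, or under 1 on either isoform, were left out. The rest were tested for an interaction of isoform and group in edgeR, with |ΔΨ| above 1%. Dispersion was set to 0, so that the quasi-likelihood term carried the spread between mice. This setting followed an earlier analysis of these data and was chosen there after calls were seen. Ψ divided the reads on both inclusion junctions by 2. limma 3.58.1 on Ψ and DESeq2 1.42.0 were alternatives. The edgeR tests of genes and of exon events were also run on simulated counts. The simulated exons all had the same spread between mice, so they cannot show whether a dispersion of 0 suits these data. Shares were compared by exact permutation over 252 splits of 10 mice. Symbols were matched for 37205 genes.

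The exons and genes named were, in each direction, the 8 cassette exons and the 10 protein-coding genes with the largest difference among those called without overlap (averaging 50 reads per mouse for exons and 1 CPM for genes, or more), 2 events of each other type, exons of genes the study discusses, and list members among the 4 with the smallest FDR. *Ly6e*, *Rpl29*, *Plk1*, *Cdt1*, *Il6*, *Ccl9* and *Ccng1* were named after their values were seen, as the members opposite to the rest of a list. The members compared and the 34 gene lists were chosen with earlier results of these data known. The fourth group, with mutation and drug together, entered only models of all 20 mice and the scaling of CPM. R 4.3.3, Python 3.11.15, pandas 2.3.3, scipy 1.17.1 and pysam 0.24.0 were used.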

Additional observations from a re-analysis of the deposited data

Results flagged for a closer look

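In 28 of 394 groups of 5 mice behind the values above, 1 mouse stood apart, with a gap to its nearest neighbour above 0.71 of the whole range of its group. Chance alone marks about 1 in 20 groups, or 19.7 of 394. Drug alone mouse 8 was the highest of its group for *Gbp1* (86.9 CPM, next 12.6), *Lipg* (36.1), I830012O16Rik (2.75) and *Ddx60* (72.1), and in the inclusion of the *Fam96a* exon (93.7%). Drug alone mouse 9 was the highest for *Stfa1* (55.0 CPM, next 9.50), *Nfkbiz* (190.65), *S100a8* (21511) and the exons of *Hp1bp3* (92.2%) and *Slc35c2* (100%), and the lowest for *Naaa* (47.95 CPM). Drug alone mouse 6 was lowest for *Naip2* inclusion (89.9%) and highest for *Pecam1* (46.05%, next 20%), and drug alone mouse 12 was lowest for *Gpr160* (46.6%). The drug alone and mutation alone mice did not overlap for these genes and exons, except for *Naaa*, *S100a8* and *Fam96a*.

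Among the mutation alone mice, mouse 7 stood apart for *Stfa1* (2.48 CPM) and 4933408B17Rik (59.2%), mouse 5 for I830012O16Rik (8.05 CPM) and *Myb* (157 CPM, the lowest), and mouse 11 for *Prkcb* (99.3%, where both groups overlapped). Among the controls, mouse 4 was the lowest for *Srsf10* (67.01 CPM), *Zfp934* (0.124) and *Tpd52* inclusion (60%), and the highest for *Fkbp5* (106 CPM) and *Il6ra* (175). Control mouse 1 was highest for *Atf3* (97.3 CPM) and *Hbb-b2* (65.8), and control mouse 2 for *Lipg* (25.98) and *Plk1* (57.3). The part of these mice in the differences was not tested beyond leaving each out.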

How the results depend on the processing

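The gene comparison called 5240 genes, and between 4035 and 6036 under 18 of the 20 alternatives, with 4273 to 5486 when 1 mouse was left out. It fell to 757 with an absolute log2 fold change of at least 1. Cassette exon calls depended more on the test. The 1648 became 242 with limma on Ψ, 0 with a dispersion estimated by edgeR (2608 at an unadjusted p under 0.05), 1075 and 629 with |ΔΨ| above 5% and 10%, and 2559 when any read on both isoforms was accepted, an alternative chosen after seeing the data, against 1159 to 1511 without single mice. limma called 55 alternative 3′ site and 4 alternative 5′ site events, and without single mice these types gave 92 to 137 and 26 to 43, and mutually exclusive exons 22 to 34. Against control, one model of all 20 mice called 1040 genes and 729 cassette exons for the drug, and leaving out single mice gave 185 to 706 and 246 to 361. The gene count was 185, 706, 228 and 218 without control mice 1, 2, 3 and 5, and 225 and 270 without drug alone mice 12 and 8, and the exon count was 246 and 250 without drug alone mouse 12 and control mouse 3. For the mutation the range was 4629 to 6670 genes and 657 to 936 exons, with 657 without mutation alone mouse 11. The share of skipping reads differed by 0.126 to 0.275 points and that of annotated sites by -0.0247 (without mutation alone mouse 5) to 0.146, and by -0.00225 without drug alone mouse 8.

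Drug alone and mutation alone mice share no replicate number, so a block on the number enters only through a model of all 20 mice. The 8 same-numbered pairs of mice had correlations of their deviations from -0.204 to 0.414, with 4 above 0.1. No differently numbered pairs were set beside them, so whether the numbers pair the mice cannot be told. With the block 926 genes and 34 cassette exons were called, and 128 cassette exons for the mutation against control. Immediate-early genes gave 16 of 25 higher with the drug, and ribosomal protein genes 40 of 77 higher with the mutation. Stem and progenitor genes and BCL2 family genes gave 0 in each direction, and glucocorticoid-responsive genes 1 with the drug. Medians turned sign for lists such as the U2AF and SF3 complexes (-0.11), heme synthesis (-0.21) and monocytes (-0.37). Under the block *Klra8* (0.70), *Klrb1c* (0.20), *Il6* (0.50), *Ly6e* (-0.25), *Plk1* (-0.046) and *Cdt1* (-0.0817) changed sign, none called. Exons not called between the arms changed sign without single mice, with ΔΨ of -1.997 to 2.54 for *Eif4a2*, -2.15 to 0.0628 for *Fn1*, -0.297 to 4.76 for 4932438A13Rik and -2.84 to 1.04 for *Cd97*. Causes were not tested. Read depth limits exons such as *Pstk* and *Pbrm1*, where the shallowest mouse had 20 and 21 reads.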
